A study of Mus musculus with 20 samples.

Results

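One RNA-seq library of mouse CD8+ T cells taken after 4 hr with 200 nM IL-2 was compared with 1 library of unstimulated CD8+ T cells, 2 of the 20 libraries of the experiment. CD8+ T cells were isolated from spleen and lymph node of C57BL/6J mice with an isolation kit, with no sorting step given (the sample records name the strain C57BL/6N). The other libraries were 3 further CD8+ T cell libraries, 1 each for IL-2 at 90 min, IL-2-REH at 90 min and IL-2-REH at 4 hr, and 15 libraries of regulatory T cells (Tregs) sorted by GFP from B6-Foxp3EGFP mice, 3 in each of the same 5 groups. IL-2-REH is a mutant of IL-2 that engages the common gamma chain less well and acts as a partial agonist, and it was also given at 200 nM. The paper describes its IL-2 and IL-2-REH as human IL-2 sequences fused to mouse serum albumin. The unstimulated cells were labelled as 0 hr, and no library of untreated cells kept for 4 hr was analysed here, so the effect of IL-2 and that of 4 hr in culture cannot be told apart within this pair. Because each CD8+ group had a single library, there was no replicate error, no test was run, and genes were counted by the size of their difference.

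IL-2 binds a receptor made of the IL-2 receptor beta chain and the common gamma chain, and the alpha chain (CD25) raises its affinity. The receptor activates the kinases JAK1 and JAK3, which phosphorylate STAT5, and STAT5 dimers bind DNA at sequences of the form TTCNNNGAA (the GAS motif). The cytokine supports survival, growth and effector function of CD8+ T cells, and STAT5 also switches on the inhibitors CISH and SOCS1, which damp the pathway. Immediate early genes, such as Fos and Jun, give unstable mRNAs that are switched on within minutes by signals such as those of the T cell receptor.

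The 2 libraries were sequenced to similar depth, with 40598133 reads on genes in unstimulated cells and 40936746 with IL-2 at 4 hr. Levels are given as RPKM, read counts divided by exon length and by the library's mapped reads, and differences as the log2 ratio of RPKM + 1, which understates the change of genes of low level. Of 23992 gene symbols, 10021 had a mean of at least 1 RPKM over the 5 CD8+ libraries and were compared. The library is labelled CD8+ T cells, and Cd8a had 256, 165.2, 203, 103 and 130.4 RPKM in the order unstimulated, IL-2 at 90 min, IL-2 at 4 hr, IL-2-REH at 90 min and IL-2-REH at 4 hr, the order used for all levels below. Cd4 stood at 1.33, 0.507, 0.463, 0.597 and 0.571 RPKM, so the CD8 transcript was far above that of Cd4 in each library. Summed over 11 macrophage and monocyte markers found in the files, the level was 41.9, 22.1, 14.1, 21.0 and 16.6 RPKM, and 11 of the 11 were lower with IL-2 at 4 hr than in unstimulated cells. Of the 10021 genes compared, 5879 had a log2 ratio below 0. The 10 B cell markers summed to 13.9 RPKM in unstimulated cells and 5.96 RPKM with IL-2 at 4 hr, 8 NK cell markers to 77.0 and 63.5 RPKM, and 8 CD8 T cell markers to 2316 and 1576 RPKM. Gzma, a granzyme gene, held 35.1 and 38.8 RPKM of the NK sums, and the other 7 NK markers were lower with IL-2 at 4 hr. In bulk RNA, fewer cells of a type and less RNA per cell cannot be told apart.

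With IL-2 at 4 hr, 54 of the 10021 genes (0.539%) differed by more than 2 on the log2 scale, 16 of them higher (0.16%) and 38 lower (0.379%). The higher genes were led by the cytokine gene Lta, the STAT5 feedback inhibitor Cish, the cytokine gene Tnf and 3 interferon-inducible GTPases (Gm12250, Iigp1 and Irgm2). The lower genes were led by the immediate early genes Fos and Fosb and the inhibitors Tnfaip3 and Dusp1. At a difference above 1, 472 genes were counted (4.71%), 131 higher (1.31%) and 341 lower (3.4%), and the median of all genes was -0.07. With read counts scaled by DESeq2 size factors, which moved that median to 0.02, 37.9% of the genes past 1 were higher, against 27.8% without that scaling. Transcripts under 200 bases made up 20 of the 131 higher genes (15.3%) and 48 of the 341 lower ones (14.1%), against 2.42% of all genes compared. As a measure of how much libraries of one group can differ, pairs of Treg libraries of the same group had 81 to 1821 genes past 1 (median 549 of 10473 over 15 pairs) and 22 to 212 past 2 (median 65). The unstimulated Treg library 1 stood apart, with 1821 and 1359 genes past 1 against the other two, which differed from each other at 152. So did library 3 of Tregs given IL-2 for 4 hr, the shallowest of the 20 with 20201392 reads on genes, with 1379 and 1641 genes past 1 against the other two, which differed at 477. The count between the 2 CD8+ libraries was therefore within the range seen between replicates of another cell type.

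**Figure D1:**
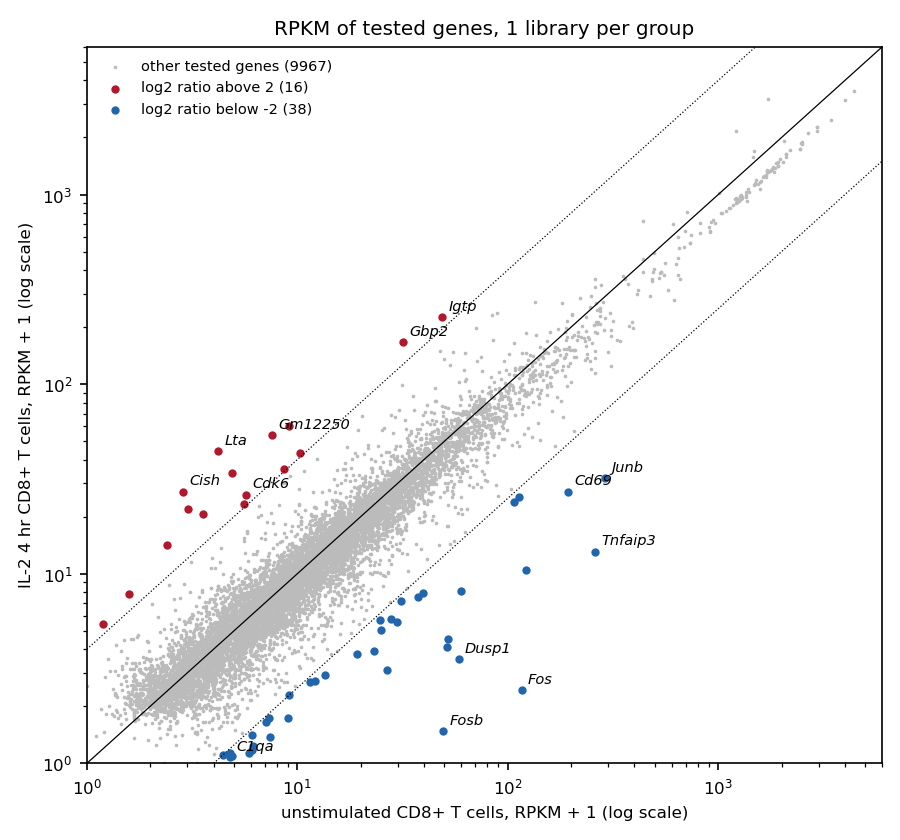
Levels of 10021 genes in unstimulated CD8+ T cells (x axis) and CD8+ T cells given IL-2 for 4 hr (y axis), each as RPKM + 1 on a log scale, with 1 library per axis. The solid line marks equal levels and the dotted lines a log2 ratio of 2 in either direction; 16 genes (red) lie above and 38 (blue) below them, and Fos and Fosb lie farthest below.

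Lta, which encodes lymphotoxin alpha, a TNF family cytokine, had the highest ratio of all genes compared. It had 3.21, 33.4, 43.4, 4.33 and 4.37 RPKM, so that it was high in both IL-2 libraries and close to the unstimulated level in both IL-2-REH libraries. With IL-2 at 4 hr it was 13.5-fold higher (interval 11.9 to 15.3) in reads per mapped read, a log2 ratio of 3.40. These and all later intervals are exact binomial 95% intervals of the read counts, they cover counting error only, and reads are not independent molecules. Lta lies on the minus strand at chr17:35203165-35205578 (GRCm38). Tnf, the neighbouring gene at chr17:35199367-35202007, had 2.03, 14.9, 20.8, 2.55 and 1.77 RPKM and was 10.3-fold higher (interval 8.899 to 11.9). Mir6974, which occupies the stretch between 2 exons of Lta (chr17:35204475-35204557), was also among the 16, on 1 read in unstimulated cells and 25 with IL-2 at 4 hr, a ratio of 22.7 (interval 3.71 to 931), and its reads cannot be told apart from those of unspliced Lta RNA.

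Cish, an inhibitor that binds the activated IL-2 receptor, had 1.87, 30.6, 26.1, 2.47 and 2.45 RPKM. It was 13.97-fold higher (interval 12.3 to 15.9), and its level at 90 min was already above that at 4 hr. Socs1, which inhibits JAK kinases, had 9.25, 36.2, 42.3, 8.76 and 9.81 RPKM and was 4.57-fold higher (interval 4.23 to 4.95). Both inhibitors stayed close to the unstimulated level in the IL-2-REH libraries. Of the 26 genes of JAK-STAT signalling, 5 were higher past 1 and 2 lower, against 1.31% and 3.4% of all genes, with a median of 0.13. Besides Cish and Socs1 the higher ones included Il2ra, the alpha chain (1.58, 4.71, 6.34, 2.81 and 3.196 RPKM), and the inhibitor Socs2 (0.557, 2.298, 2.61, 0.441 and 0.385 RPKM). The lower ones were the kinase Jak3 (26.9, 11.3, 10.3, 10.1 and 9.16 RPKM) and the phosphatase Ptpn6 (76.3, 33.1, 32.5, 20.1 and 22.02 RPKM), and both were also lower in the other 3 stimulated libraries. The beta chain Il2rb had 122, 188, 186, 149 and 87.5 RPKM, a log2 ratio of 0.61 with IL-2 at 4 hr. Stat5a and Stat5b, the transcription factors of the pathway, had ratios of -0.33 and 0.06.

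The start of the Cish transcript is shown because it carries the STAT motif in tandem. In RefSeq (GRCm38.p6) the first 20 bases of Cish lie at chr9:107296659-107296678 on the plus strand, and capitals mark GAS motifs.
Cish: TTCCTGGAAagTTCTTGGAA
Near the start of Lta the motif was also found in 2 copies, TTCAGGGAA at chr17:35205495-35205503 and TTCCCAGAA at chr17:35205359-35205367, on the minus strand. They lie before the start used in the table of promoters, chr17:35205351, which is 227 bases inside the span of the gene given above. Among 11 of the 15 highest genes that had a window of 300 bases around the start in the table of promoters (250 before and 50 after), 5 held the GAS motif (45.5%), namely Lta, Cish, Gm12250, Irgm2 and Igtp. It was present in 672 of 7895 windows of all genes compared (8.51%), in 18 of 86 windows of genes higher past 1 (20.9%) and in 22 of 222 of those lower past 1 (9.91%). The motif is palindromic, so both strands are read at once. A match describes the letters of these windows only, and whether STAT5 was bound there was not measured.

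Interferon-stimulated genes were split. Of the 45 compared, 16 were higher past 1 and 5 lower, against shares of 1.31% and 3.4% of all genes, and their median was 0.04. The 16 were mainly p47 immunity-related GTPases (IRGs) and p65 guanylate-binding proteins (GBPs), families that act against intracellular parasites and are known to be induced by interferon gamma. Gbp2 had 30.9, 32.7, 166.1, 25.8 and 38.9 RPKM and was 5.38-fold higher (interval 5.22 to 5.55), a level that was reached at 4 hr with IL-2 and in no other CD8+ library. Iigp1 showed a similar time course, with 3.87, 5.38, 33.1, 3.28 and 5.103 RPKM. Igtp had 47.7, 99.6, 226, 38.6 and 54.2 RPKM and Gm12250, another IRG gene, had 6.55, 18.3, 52.7, 5.29 and 8.95 RPKM, and in both the level at 90 min of IL-2 lay between the unstimulated level and that at 4 hr. Irgm2 had 8.12, 34.2, 59.4, 19.9 and 29.6 RPKM, and of these 5 genes it had the highest ratios with IL-2-REH, 1.19 at 90 min and 1.75 at 4 hr.

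Among the other members past 1 in this direction were Gbp5 (1.80), Tgtp1 (1.65), Ifi47 (1.49), Tgtp2 (1.44), Irgm1 (1.30), Parp14 (1.20), Gbp6 (1.12), Ly6a (1.08), Gbp3 (1.07) and Gbp4 (1.03), as log2 ratios. Gbp11, which was not on the list and is annotated by RefSeq as a transcribed pseudogene, had 4.57, 12.1, 22.4, 2.52 and 2.98 RPKM and a ratio of 2.07. The lower members were Mx1 (4.44, 0.552, 0.455, 0.604 and 0.238 RPKM), Ly6c2 (309, 125, 124, 91.2 and 41.8 RPKM), Ifit1 (5.4, 1.66, 1.796, 1.33 and 1.35 RPKM), Isg15 (6.83, 2.53, 2.56, 2.02 and 0.9498 RPKM) and Ifit3 (9.43, 3.32, 4.21, 3.33 and 5.13 RPKM), of which Mx1, Ifit1, Isg15 and Ifit3 are antiviral genes known for their response to type I interferon. These 5 were lower than unstimulated in the IL-2 library at 90 min and in both IL-2-REH libraries too. Ifng, the gene of interferon gamma itself, had 7.89, 3.25, 1.7, 0.905 and 0.561 RPKM and was 4.64-fold lower (interval 3.85 to 5.63) with IL-2 at 4 hr. By qPCR at this dose and time, the paper reports the other direction, with Ifng raised by IL-2 and not by IL-2-REH. That qPCR was scaled to Gapdh, on RNA isolated with another kit, whereas the ratio here is scaled to mapped reads. The paper's other qPCR genes, Bcl2, Myc, Gzmb and Lta, were higher with IL-2 in both. Ifngr1, a receptor chain for interferon gamma, had 87.5, 252, 237, 236 and 272 RPKM, high in each of the 4 stimulated libraries. Irf1, a transcription factor of the same pathway, had 117, 96.99, 121, 78.1 and 80.7 RPKM and a ratio of 0.04. None of the 22 genes of MHC class I presentation passed 1 in either direction (the shares in all genes were 1.31% and 3.4%), and the largest ratio was that of their transactivator Nlrc5 (47.7, 44.4, 75.5, 35.8 and 33.1 RPKM). Copies of these families are closely alike (Tgtp1 and Tgtp2, and the GBP genes), and exons of Irgm2 overlap those of Igtp on the same strand, so reads could be assigned to a neighbour or lost as not unique.

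**Figure D2:**
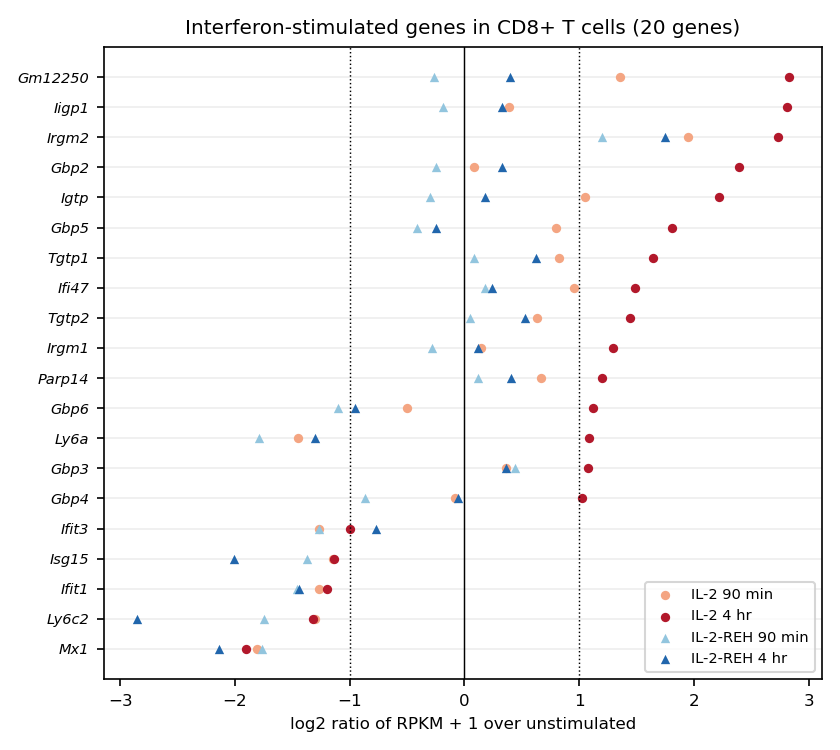
Log2 ratio of RPKM + 1 over the unstimulated library for 20 of the interferon-stimulated genes past 1 or -1 that the text names, in the 4 stimulated CD8+ libraries, which share that unstimulated library; dotted lines mark 1 and -1. Sorted by IL-2 at 4 hr (dark red), the genes past 1 have Gm12250, Iigp1 and Irgm2 at the top, and the 5 past -1 have Mx1 at the bottom.

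The 3 GTPase genes that lie close together on chromosome 11 are shown for their shared promoter letters. Each stretch is the 100 bases before the RefSeq start (GRCm38.p6, plus strand), at chr11:58183743-58183842 for Gm12250, chr11:58214877-58214976 for Irgm2 and chr11:58199456-58199555 for Igtp. Capitals mark the GAS motif and the interferon response motif (ISRE, here TTTCNNTTTC or its reverse complement GAAANNGAAA).
Gm12250: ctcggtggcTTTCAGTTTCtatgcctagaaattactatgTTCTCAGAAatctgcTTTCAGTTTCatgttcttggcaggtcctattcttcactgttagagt
Irgm2: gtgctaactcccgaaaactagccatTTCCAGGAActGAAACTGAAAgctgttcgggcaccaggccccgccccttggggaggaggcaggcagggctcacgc
Igtp: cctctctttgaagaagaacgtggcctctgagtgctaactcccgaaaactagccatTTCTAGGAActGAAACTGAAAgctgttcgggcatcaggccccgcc
In Irgm2 and Igtp a GAS motif was followed by an ISRE after 2 bases, and in Gm12250 a GAS motif lay between 2 ISREs. The letters around these sites are nearly the same in Irgm2 and Igtp, so their windows are not independent in the counts of either motif. Gbp2 held an ISRE, TTTCACTTTC, at chr3:142620604-142620613. Among the 15 highest genes the ISRE was found in 5 of 11 windows (45.5%), those of Gm12250, Irgm2, Gbp2, Igtp and Socs1, against 318 of 7895 windows of all genes (4.03%) and 12 of 86 of genes higher past 1 (14.0%). It was in 13 of 222 windows of genes lower past 1 (5.86%) and in 1 of 12 among the 15 lowest genes. The GAS motif and the ISRE were both present in 3 of the 11 windows, without sharing a base. Motifs of AP-1, CRE, NF-kB, the CArG box and the E-box were also searched for. In windows of the highest and the lowest genes, AP-1 was found in 2 of 11 and 1 of 12 (5.5% of all windows). NF-kB was in 0 of 11 and 3 of 12 (6.07%), and CRE in 0 of 11 and 2 of 12 (3.94%). The E-box was in 2 of 11 and 2 of 12 (12.4%), and the CArG box in none (1.48%).

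Among genes of survival and growth, 3 of 22 were higher past 1 and 1 lower, against 1.31% and 3.4% of all genes, with a median of 0.19. Bcl2, which protects cells from apoptosis, had 30.4, 67.5, 98.5, 20.4 and 13.4 RPKM and was 3.24-fold higher (interval 3.18 to 3.303). Pim2, a kinase that supports survival, had 43.9, 58.7, 93.9, 22.02 and 28.6 RPKM and the cytokine Osm had 4.57, 7.82, 13.97, 2.198 and 2.404 RPKM. All 3 were highest with IL-2 at 4 hr and stood below the unstimulated level in both IL-2-REH libraries. Bcl6, a repressor that is held down by STAT5 in T cells, had 3.21, 0.898, 0.777, 6.23 and 4.07 RPKM, low with IL-2 and above the unstimulated level with IL-2-REH. Myc, which drives growth, had 39.4, 32.3, 70.04, 8.98 and 10.8 RPKM, and its log2 ratio of 0.81 with IL-2 at 4 hr did not pass 1. Its lowest levels were those of the IL-2-REH libraries.

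Cdk6, a kinase of the G1 phase, had 4.69, 6.63, 25.2, 2.95 and 2.47 RPKM and was 5.36-fold higher (interval 4.95 to 5.81). It was 1 of 22 G1 cyclins, CDKs and their inhibitors past 1 (2 with DESeq2 size factors), a share of 4.55% beside 4.71% of all genes, and Ccnd2, the cyclin D2 gene, had 70.03, 88.2, 132, 33.3 and 29.7 RPKM, a ratio of 0.90. Of 35 genes of DNA replication and mitosis none was past 1, and their ratios ran from -0.62 (Tk1) to 0.60 (Lig1). No member passed 1 among 50 ribosome biogenesis genes (median -0.12), 41 translation factors (-0.05), 31 proteasome subunits (0.03) or 42 nuclear genes of oxidative phosphorylation (-0.20), where 4.71% of all genes did, so that few would be counted in lists of this size at that share. The ribosome biogenesis median was -0.15 with IL-2 at 90 min, -0.28 with IL-2-REH at 90 min and -0.68 with IL-2-REH at 4 hr. Each of the 57 cytosolic ribosomal protein genes was below 0, where 5879 of all 10021 genes were, with log2 ratios from -0.57 (Rps2, 1374, 1134, 925, 1084 and 854 RPKM) to -0.28 and a median of -0.41. Their transcripts are short, and while genes with transcripts of up to 1444 bases had a median of -0.21, those of 4484 bases or longer had 0.03, and the part of length in that result was not tested. Wars, a tRNA synthetase known to respond to interferon, was past 1 with 14.5, 14.8, 34.2, 10.5 and 12 RPKM, 1 of 21 synthetases, and Acat2 with 4.76, 9.83, 15.4, 6.07 and 4.25 RPKM was 1 of 34 genes of cholesterol and fatty acid synthesis.

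TNF superfamily ligands held the gene with the highest ratio. Of 7 ligands compared, 3 were higher past 1 (Lta, Tnf and Tnfsf8) and 1 lower, against 1.31% and 3.4% of all genes, with a median of 0.58. Tnfsf8, the ligand of CD30, had 16.1, 44.3, 45.6, 6.51 and 11.1 RPKM, and Tnfsf14, the lower one, had 3.55, 0.708, 0.924, 0.507 and 0.362 RPKM. Of 12 receptors, Tnfrsf18 (GITR) alone was past 1, where 4.71% of all genes were, with 19.3, 77.97, 66.8, 28.7 and 23.1 RPKM. Tnfrsf4 (OX40) had 3.57, 5.12, 5.64, 3.32 and 4.66 RPKM and Tnfrsf9 (4-1BB) 4.603, 6.15, 4.49, 2.76 and 2.05 RPKM.

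Cytotoxic and cytokine genes did not move together. Gzmb, the protease granzyme B, had 8.19, 18.3, 31.7, 4.58 and 1.999 RPKM and was 3.87-fold higher (interval 3.56 to 4.203), while in the IL-2-REH libraries it was below the unstimulated level. It was 1 of 16 past 1 in this direction, and 4 were lower, which were Ifng and the chemokines Ccl3 (11.1, 3.13, 1.72, 0.732 and 0.245 RPKM), Ccl4 (12.9, 3.99, 2.997, 1.34 and 0.858 RPKM) and Xcl1 (21.5, 14.9, 7.26, 5.09 and 5.36 RPKM). The median was -0.42, and of all genes 1.31% were higher past 1 and 3.4% lower. Perforin (Prf1) had 21.98, 15.3, 17.8, 10.3 and 9.32 RPKM and Gzma 35.1, 33.3, 38.8, 21.2 and 19.2 RPKM, ratios of -0.29 and 0.14. Among 31 effector and memory genes, 3 were higher past 1 and 4 lower, but after centring, with TMM factors and with DESeq2 size factors 4 were higher and 1 lower. The higher ones were the cytokine receptor chains Il12rb2 (1.45, 13.2, 7.74, 8.92 and 3.33 RPKM), Ifngr1 and Il10ra (9.21, 23.4, 22.3, 10.3 and 12.4 RPKM). The transcription factors Eomes (22.4, 8.48, 10.6, 10.1 and 9.29 RPKM) and Tox (9.26, 5.83, 3.95, 5.42 and 7.08 RPKM), the receptor Klrd1 (84.8, 51.4, 41.2, 73.3 and 146 RPKM) and Cd69 were lower, the first 3 only just past -1 (-1.02, -1.05 and -1.02). Tbx21, which encodes T-bet, had 9.86, 7.81, 8.99, 3.61 and 3.84 RPKM. Levels at 4 hr of Klrd1 were on opposite sides of the unstimulated library, 41.2 RPKM with IL-2 and 146 RPKM with IL-2-REH.

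**Figure D3:**
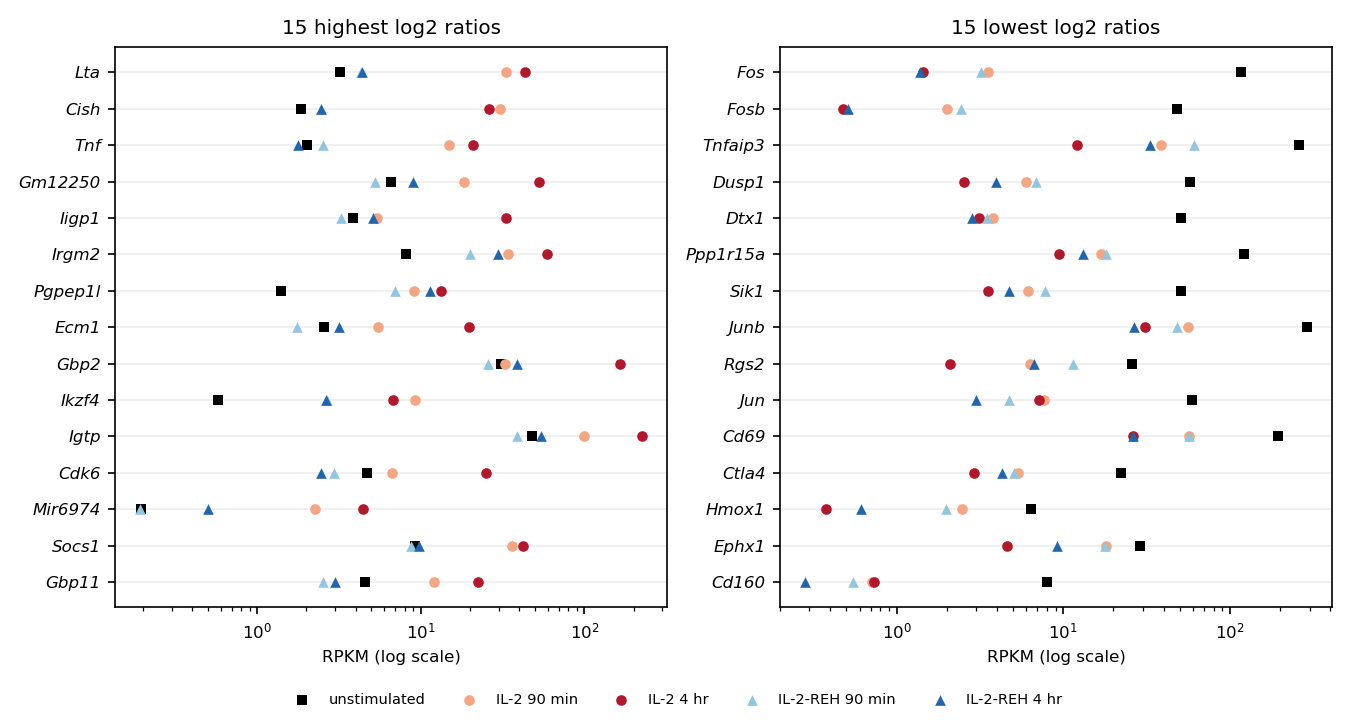
RPKM on a log scale in the 5 CD8+ libraries for the 15 genes with the highest (left) and the 15 with the lowest (right) log2 ratio of IL-2 at 4 hr over unstimulated; each symbol is 1 library, and symbols of equal value hide each other. In the left panel the IL-2-REH symbols lie at a clearly higher RPKM than the unstimulated square for Irgm2, Pgpep1l and Ikzf4. They lie closer to it for the others, except Mir6974 with IL-2-REH at 4 hr, which rests on 3 reads. In the right panel the unstimulated square lies at a higher RPKM than the symbols of all 4 stimulated libraries for each gene.

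Other genes among the 15 highest belonged to no single group. Ecm1, which encodes an extracellular matrix protein, had 2.57, 5.45, 19.7, 1.75 and 3.15 RPKM and was 7.67-fold higher (interval 6.81 to 8.68). Ikzf4, a transcription factor of the Ikaros family known from Tregs, had 0.577, 9.29, 6.82, 2.69 and 2.63 RPKM and was 11.8-fold higher (interval 9.85 to 14.3). Pgpep1l had 1.398, 9.07, 13.2, 6.93 and 11.4 RPKM, and it was high in all 4 stimulated libraries. Mov10, an RNA helicase, was the last of the 16 past 2, with 7.599, 22.4, 34.7, 8.35 and 10.3 RPKM, and lay outside the 15 chosen by rank, so it is named after its value was seen. The medians of the 16, side by side, were 1.44 with IL-2 at 90 min, 2.46 with IL-2 at 4 hr, -0.04 with IL-2-REH at 90 min and 0.32 with IL-2-REH at 4 hr. These 4 comparisons share the unstimulated library, and the second is the one by which the genes were chosen.

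Immediate early genes made up the largest differences of all. Fos had 116, 3.54, 1.44, 3.198 and 1.38 RPKM and was 80.4-fold lower (interval 70.01 to 92.8) with IL-2 at 4 hr. Fosb had 48.4, 2.01, 0.477, 2.42 and 0.512 RPKM, and it was 101-fold lower (interval 84.9 to 122). Both proteins pair with Jun proteins to form the transcription factor AP-1. Junb had 289, 56.3, 30.8, 47.9 and 26.4 RPKM and Jun 59.3, 7.71, 7.14, 4.74 and 2.998 RPKM, ratios of -3.19 and -2.89. Of 23 AP-1 and immediate early genes, 22 were below 0, as were 5879 of all 10021 genes, and the median was -0.98, against -0.07 for all genes. Past 1, 10 of the 23 were lower and none higher, against 3.4% and 1.31% of all genes. The other 6 were Nr4a1 (-2.26), Egr1 (-2.13), Klf4 (-2.10), Nr4a2, Maff (-1.92) and Klf6 (-1.16), as log2 ratios. Nr4a1, an orphan nuclear receptor that responds to T cell receptor signals, followed another time course than Fos, with 26.8, 20.9, 4.79, 22.1 and 5.82 RPKM, near the unstimulated level at 90 min with either cytokine and low at 4 hr. Nr4a2, of the same family, had 8.18, 5.27, 1.29, 5.85 and 1.48 RPKM, also lower at 4 hr than at 90 min with either cytokine. The medians of the list were -0.89 with IL-2 at 90 min, -1.02 with IL-2-REH at 90 min and -1.41 with IL-2-REH at 4 hr, and all of these differences use the same unstimulated library.

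Several inhibitors of NF-kB and MAP kinase signalling were also among the lower genes. Tnfaip3 (A20), an inhibitor of NF-kB signalling, had 259.6, 38.4, 12.1, 60.8 and 32.97 RPKM and was 21.4-fold lower (interval 20.7 to 22.2), with the IL-2 library at 4 hr the lowest of the 5. Of 20 genes of NF-kB subunits and inhibitors 2 were lower past 1 and 1 higher, against 3.4% and 1.31% of all genes. The lower ones were Tnfaip3 and Nfkbid (27.1, 19.7, 11.5, 21.8 and 9.604 RPKM), and Bcl3 was higher (5.69, 16.8, 14.4, 9.08 and 8.26 RPKM). Dusp1, a phosphatase that switches off MAP kinases, had 57.4, 5.99, 2.53, 6.89 and 3.95 RPKM and was 22.7-fold lower (interval 20.3 to 25.4). With it, 6 of 13 MAPK phosphatase and Sprouty genes were lower past 1 and none higher, against 3.4% and 1.31% of all genes. Among the 6 were Dusp2 (112, 64.2, 24.5, 70.1 and 27.4 RPKM), Spry2 (6.12, 1.07, 0.658, 1.08 and 1.01 RPKM) and Dusp5 (32.3, 13.3, 7.45, 7.68 and 3.87 RPKM). Ppp1r15a (GADD34), which restarts translation under stress, had 121, 16.8, 9.42, 18.2 and 13.1 RPKM. Sik1, a kinase induced by cAMP, had 50.96, 6.15, 3.52, 7.801 and 4.72 RPKM. Beside 3.4% and 1.31% of all genes, 4 of 20 regulators of mRNA decay were lower past 1 and none higher. They were Zfp36l2 (206, 74.5, 55.8, 105 and 96.96 RPKM), Zfp36 (86.5, 41.3, 28.5, 34.3 and 27.5 RPKM), Zfp36l1 (78.2, 36.9, 30.01, 39.6 and 38.2 RPKM), which bind AU-rich elements of unstable mRNAs, and Btg1 (160.5, 112, 71.6, 97.3 and 104 RPKM).

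Surface receptors were the next group. Of 15 inhibitory receptors and costimulators, 7 were lower past 1 and none higher, against 3.4% and 1.31% of all genes, with a median of -0.97. Ctla4 had 22.1, 5.32, 2.92, 5.09 and 4.26 RPKM and Cd160 7.99, 0.717, 0.7296, 0.546 and 0.283 RPKM, and both were lower in each stimulated library. Ctla4 is also 1 of 7 CD4 and Treg markers, which summed to 31.3, 16.6, 14.04, 16.2 and 15.9 RPKM, mostly through Ctla4 in unstimulated cells, and to 522 RPKM or more in each Treg library. Of the 7, 5 were lower with IL-2 at 4 hr, among them Cd40lg (1.54, 0.794, 0.307, 0.6296 and 0.574 RPKM) and Ikzf2 (2.78, 3.51, 2.01, 6.01 and 5.64 RPKM), and 2 were higher, Il2ra and Foxp3, which defines Tregs (0.518, 0.999, 0.813, 0.482 and 0.645 RPKM). Their part in the level of Ctla4 was not tested. The other 5 inhibitory receptors and costimulators past -1 were Cd5 (-1.53), Cd28 (-1.39), Cd96 (-1.39), Cd6 (-1.25) and Btla (-1.04). Btla was not past -1 after centring or with DESeq2 size factors. Cd28, which gives the main costimulatory signal, was at 32.3, 19.9, 11.7, 33.8 and 36.6 RPKM, below the unstimulated level in both IL-2 libraries and above it in both IL-2-REH libraries. Cd69, an early activation marker that retains T cells in tissue, had 193, 56.98, 26.1, 56.8 and 26.2 RPKM. Of 25 genes of the T cell receptor signalling core 22 were below 0, as were 5879 of all 10021 genes, with a median of -0.42. Beside 4.71% of all genes, 2 of the 25 were past 1, Cd3g (299, 147, 147, 143 and 179.3 RPKM) and Malt1 (23.8, 9.87, 10.8, 9.16 and 16 RPKM). Neither was past -1 after centring or with TMM or DESeq2 size factors. The summed level of the 8 CD8 T cell markers, some of which belong to that core, was 2316 RPKM in unstimulated cells and 1114 to 1576 RPKM in the other 4 libraries.

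Genes of migration and G protein signalling showed 7 of 25 lower past 1 and 1 higher, against 3.4% and 1.31% of all genes. The higher one was the receptor Gpr34 (1.78, 5.92, 6.46, 0.559 and 1.47 RPKM). Rgs2, which shortens G protein signals, had 25.7, 6.28, 2.1, 11.4 and 6.68 RPKM. Gpr183, which guides cells by oxysterols, had 38.6, 9.56, 6.96, 9.41 and 15.2 RPKM, and Ramp1, a partner of the CGRP receptor, had 6.36, 1.08, 0.741, 0.907 and 0.769 RPKM. Cxcr4, on the list of quiescence and homing genes, had 103, 63.6, 26.8, 84.2 and 51.7 RPKM and was 3.83-fold lower (interval 3.69 to 3.99). The homing receptor Ccr7 (153, 179.3, 114, 162.1 and 124 RPKM) and the cytokine receptor Il7r (130.0, 164.1, 123, 223 and 403 RPKM) did not pass 1, nor did their regulator Klf2 (197, 182, 129, 150.2 and 154 RPKM). Foxo1, a factor that maintains this program, had 51.2, 30.5, 21.96, 27.7 and 27.2 RPKM and was past 1, while Slfn2, known to keep T cells quiescent, was higher (84.2, 209.7, 170.7, 148 and 152 RPKM). Ccr9, the gut homing receptor, had 12.6, 2.97, 1.93, 3.88 and 4.46 RPKM, and Itgae (CD103), on the TGF-beta list, had 26.3, 12.8, 10.8, 15.1 and 28.1 RPKM.

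Some lower genes belong to other cells or are little known. C1qa, C1qb and C1qc, which encode complement C1q and mark macrophages, were 3 of the 38. C1qa had 3.81, 1.52, 0.0819, 1.48 and 0.128 RPKM, on 253 reads in unstimulated cells and 6 with IL-2 at 4 hr. Macrophage markers summed to 41.9 RPKM in unstimulated cells and 14.1 RPKM with IL-2 at 4 hr, as given above, and their part in the lower genes was not tested. Dtx1, a Notch pathway E3 ligase linked to T cell anergy, had 50.6, 3.81, 3.12, 3.498 and 2.85 RPKM. Of 20 Notch pathway genes, it and Dtx3 (17.3, 6.74, 7.35, 7.36 and 8.23 RPKM) were past 1, as were 4.71% of all genes. Hmox1, heme oxygenase, had 6.44, 2.46, 0.375, 1.99 and 0.613 RPKM, and Ephx1, an epoxide hydrolase, 28.7, 17.9, 4.59, 17.8 and 9.12 RPKM. Cd72, a receptor best known from B cells, had 24.1, 5.705, 4.07, 4.85 and 2.71 RPKM. Exons of Cd72 overlap those of Tesk1 and exons of Junb, Dusp1, Ppp1r15a and Cd160 those of Prdx2, Ergic1, Tulp2 and Pdzk1, each on the opposite strand, and whether counting took strand into account is not given in the sources used here. The medians of the 38 lower genes were -1.78 with IL-2 at 90 min, -2.32 with IL-2 at 4 hr, -1.78 with IL-2-REH at 90 min and -2.17 with IL-2-REH at 4 hr, again against 1 unstimulated library.

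Further lists held few members past 1. They were cAMP response genes (1 of 18, Crem with 2.12, 25.9, 10.5, 18.5 and 5.31 RPKM), TGF-beta pathway genes (Pmepa1 with 2.08, 24.7, 7.03, 19.2 and 3.82 RPKM and Itgae, of 19), glycolysis genes (2 of 22 lower, Pdk1 with 43.3, 15.4, 19.3, 17.1 and 27.8 RPKM and Ldhb with 5.54, 3.95, 2.15, 3.57 and 2.65 RPKM) and nutrient transporters (Slc2a3 of 18, 12.2, 3.91, 5.19, 3.96 and 7.03 RPKM). Crem and Pmepa1 were highest at 90 min with either cytokine. Amino acid stress genes had 1 of 17 past 1 (Ppp1r15a), chaperones 1 of 28 (Dnajb4, -1.08), redox genes 1 of 23 (Hmox1), and none of 8 GIMAP GTPases passed. Of 17 hypoxia and stress genes, Gadd45g was higher (1.24, 2.32, 3.94, 0.372 and 0.435 RPKM) and Pnrc1, Gadd45a and Rhob lower (-1.27, -1.17 and -1.03). These shares compare with 4.71% of all genes. With DESeq2 size factors Slc2a3, Dnajb4, Ldhb and Rhob were not past -1, and Ldhb and Rhob were not past -1 after centring either.

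**Figure D4:**
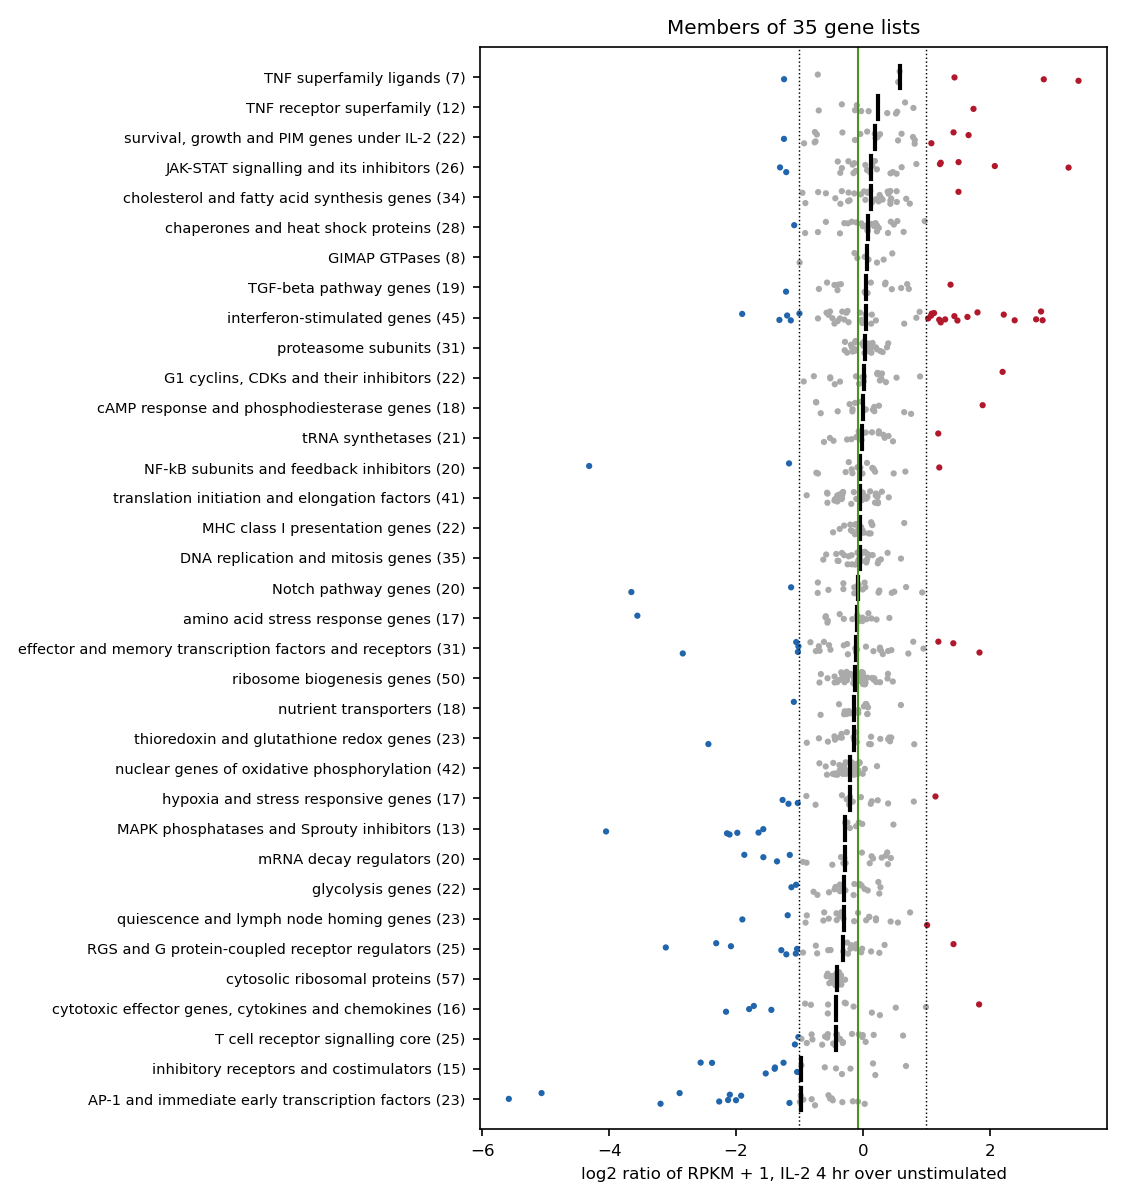
Log2 ratio of RPKM + 1, IL-2 at 4 hr over unstimulated, for the members of 35 gene lists (points; red past 1, blue past -1), with the number compared in brackets, the median of each list as a black bar and the median of all genes, -0.07, as a green line. The AP-1 list (median -0.98) and the inhibitory receptors (-0.97) lie lowest and the TNF ligands (0.58) highest, and the interferon list has red and blue points on both sides of a median of 0.04.

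Tregs given the same dose for the same time do not share a library with the CD8+ pair, and their ratios were set beside it for the 3 same-numbered pairs. Of the 16 genes higher in CD8+ T cells, 11 had a ratio above 0 in 3 of 3 Treg pairs, as had 13.4% of all 10021 genes, and 5 were past 1 in each (Cish, Ecm1, Socs1, Mov10 and Mir6974), against 0.369% of all genes. Without pair 1, which holds the unstimulated Treg library that stood apart, the counts were 12 and 5, against 27.4% and 1.73% of all genes. Without pair 3, which holds the IL-2 4 hr library that stood apart, they were 12 and 7, against 19.7% and 0.559%. Ecm1 had ratios of 2.64, 3.12 and 3.11 in pairs 1 to 3 and Cish 1.32, 1.76 and 1.30. Neither Igtp nor Irgm2 did so, with -0.31, 1.34 and -0.03 for Igtp and -0.50, 1.35 and -0.43 for Irgm2, above 0 in pair 2 alone. Gbp2 had 1.02, 1.87 and 0.74. Lta had 3.41, 1.58 and 0.07, from unstimulated levels of 3.84, 22.3 and 19.0 RPKM, and Tnf 0.08, 1.01 and 0.07. The ratios of Mir6974 start from low levels, 0, 1.49 and 0.396 RPKM in unstimulated Tregs. Its reads cannot be told apart from those of unspliced Lta RNA here either.

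Of the 38 genes lower in CD8+ T cells, 28 had a ratio below 0 in 3 of 3 Treg pairs (20.1% of all genes) and 8 were past -1 in each (0.469% of all genes), which were Fos, Dusp1, Dtx1, Junb, Ephx1, Cd72, Dusp2 and D8Ertd82e. Without pair 1 the counts were 29 and 19, against 42.4% and 3.03% of all genes. Without pair 2 they were 36 and 18, against 31.5% and 1.33%, and without pair 3 they were 28 and 8, against 24.6% and 0.499%. Leaving out a pair was chosen after seeing the data. Fos had -3.65, -1.32 and -3.31 and Dtx1 -1.06, -4.80 and -4.11. Fosb was at -2.97, 0.87 and -1.67, so that pair 2 had the opposite sign. None of the 54 genes had the opposite sign in 3 of 3 pairs, where 20.1% of all genes were below 0 and 13.4% above 0 in each pair. Bcl2 had 1.43, 0.35 and 0.08 in Tregs, Myc 1.07, 1.34 and 1.56 and Gzmb 1.20, 2.18 and 0.40. Whether any gene differed between the cell types was not tested, since the CD8+ groups hold 1 library each.

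**Figure D5:**
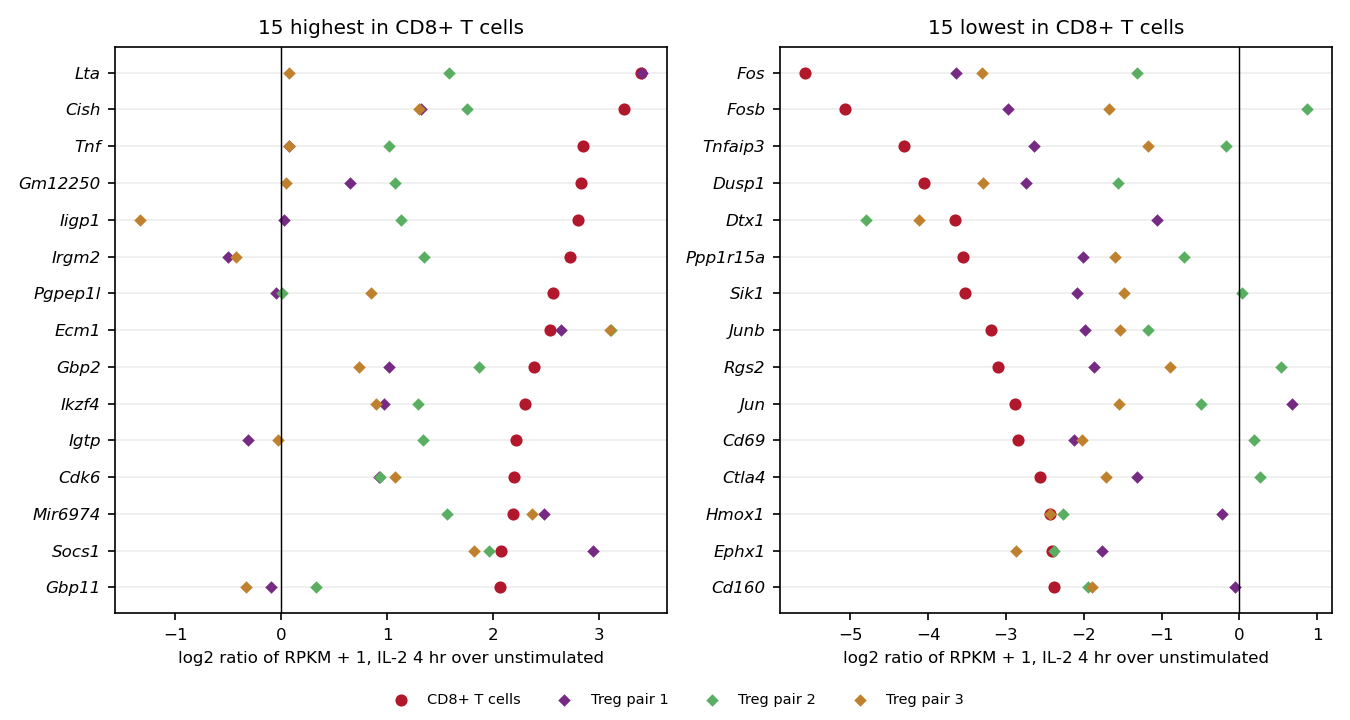
Log2 ratio of RPKM + 1, IL-2 at 4 hr over unstimulated, in CD8+ T cells (red circles, 1 pair of libraries) and in the 3 same-numbered pairs of Treg libraries (diamonds) for the 15 highest (left) and 15 lowest (right) genes in CD8+ T cells. Cish, Ecm1, Socs1 and Mir6974 are past 1 in all 3 Treg pairs, whereas Igtp, Irgm2 and Gbp11 lie below 0 in pairs 1 and 3.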

How the data were processed

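RNA of CD8+ T cells and Tregs was sequenced as single-end reads of 50 bases. The authors mapped them to mm10 (GRCm38) with Bowtie2 2.2.6 and TopHat2 2.1.1, kept uniquely mapped reads, and deposited the read counts on the exons of each of 31682 RefSeq transcripts (with SAMtools 0.1.8 and bedtools 2.25.0 named in the submitters' processing notes). Beside the counts the authors deposited RPKM, scaled by exon length and by mapped reads, of which the files imply 61428696 in the unstimulated and 67741311 in the IL-2 4 hr library. Of these reads 66.1% and 60.4% fell on the genes used.

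Where a symbol had several transcripts, the one with the highest read total over the 20 libraries represented it. Genes with a mean of at least 1 RPKM over the 5 CD8+ libraries were kept, and the log2 ratio used a pseudocount of 1 RPKM. The design assumed no test for 1 library against 1, so none was run, and intervals are exact binomial (Clopper-Pearson). The calculation was tested on counts simulated from the unstimulated library, with known differences and counting error only. Spread between libraries was not part of that check. Genes named are the 15 highest and 15 lowest ratios, those the paper names for CD8+ T cells, and list members past 1 (or, where fewer than 2 passed, the 2 with the largest ratios); other genes beside them are given as known parts of a pathway and were named after their values were seen. The comparison, members and lists were chosen with earlier results of these data known. Gene positions and promoters came from RefSeq (GRCm38.p6), which matched 23878 of 23992 symbols, and exon overlaps from GENCODE vM21 of the same assembly. Some members are not reported here. Alternatives were a pseudocount of 0.1, centring, TMM (edgeR 4.0.16) and DESeq2 1.42.0 size factors in R 4.3.3, a minimum of 5 RPKM, no filter, a filter on the 2 libraries alone and the longest transcript. Plots used matplotlib 3.10.9, and all other calculations scipy 1.17.1, pandas 2.3.3 and numpy 2.4.6 under Python 3.11.15.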

Additional observations from a re-analysis of the deposited data

How the results depend on the processing

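The counts past 2 and past 1 stayed within 1.5 times of those reported under centring, TMM factors, DESeq2 size factors, no filter, a filter on the 2 libraries alone and the longest transcript, and also without transcripts under 200 bases or with at least 50 reads in 1 or both libraries, both of which were chosen after seeing the data. A pseudocount of 0.1 RPKM, which by its construction widens the ratios of genes of low level, gave 119 genes past 2 (34 higher and 85 lower) and 759 past 1, 254 of them higher. A minimum mean of 5 RPKM, with 6804 genes compared, left 23 lower genes past 2 and 287 genes past 1, 193 of them lower. Of 116 named genes past 1, 105 remained past 1 after centring and with TMM factors and 103 with DESeq2 size factors, and 0 changed sign under any alternative. No paired analysis was possible because the result comes from no test and each CD8+ group has 1 library. For the same reason no library could be left out, and every ratio and gene list count rests on the single unstimulated library. Genes of few reads, such as Mir6974, Snord49b and Mir24-2 with 1 read in a library, have wide counting intervals.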
